A study of Caenorhabditis elegans with 2 samples.

Results

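Of the 1815 peaks that chromatin immunoprecipitation of tagged VAB-7 gave in Caenorhabditis elegans, 236 (13.0%) had their summit between the 5′ ends of a pair of protein-coding genes transcribed away from each other. Such a summit lay upstream of its nearest protein-coding 5′ end, at most 1000 bp away, and also upstream of a 5′ end on the opposite strand, at most 2000 bp away on the other side. Summits within 200 bp of the 5′ end of a tRNA, snoRNA or snRNA gene were set aside first, which left 1301 summits, of which the 236 were 18.1%. The choice used the annotation and the position of the summit, not the strength of the peak. A further 23 summits met both distance limits but lay at a small RNA gene.

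The larvae were whole animals of strain RW12267, genotype st12267[vab-7::TY1::EGFP::3xFLAG] III, in which CRISPR inserted a TY1, EGFP and 3xFLAG tag at vab-7. They were L4 larvae aged 47 hours, from cultures synchronised by bleaching and L1 starvation, and their sex was not collected. An antibody against GFP recovered the chromatin after sonication, and the 2 samples were biological replicates 1 and 2 of 1 group, so no condition was compared with another. An untagged or other control was not analysed here, so whether a peak depends on the tagged protein was not tested. Since whole animals were used, the cells behind a peak are not known.

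Divergent promoters are common in the compact genome of this nematode: neighbouring genes on opposite strands start from the same stretch of intergenic DNA, which holds the regulatory sequence of both. Many pairs of this kind include a gene that most cells use, such as one for a ribosomal protein or a chaperone. VAB-7 is the nematode homologue of Even-skipped, a homeodomain transcription factor of posterior patterning and of DB motor neuron identity. Homeodomains of this class bind short AT-rich sites built around TAAT. A summit between a divergent pair cannot be assigned to either gene from its position alone.

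The sequence under the strongest of these summits is shown first, because its composition is one of the features the members shared. Each line gives the summit base and 50 bases to each side of it from the ce11 genome (NCBI RefSeq assembly sequence), on the strand of the nearest gene. The 6 windows belong to the highest signals among members overlapped by a peak of both replicates, with no annotated exon in the window, on the chromosomes II, III, IV, V and X; the peak at dnj-28 and supr-1, stronger than the sixth, lies elsewhere and is not shown. Capitals mark any of the words searched, named with the results below on sequence.
K12H4.5 / K12H4.6 (chrIII:8043906-8044006, plus strand): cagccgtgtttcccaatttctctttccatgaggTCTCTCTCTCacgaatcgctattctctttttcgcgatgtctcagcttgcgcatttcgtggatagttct
tasp-1 / K01G5.10 (chrIII:10759195-10759295, plus strand): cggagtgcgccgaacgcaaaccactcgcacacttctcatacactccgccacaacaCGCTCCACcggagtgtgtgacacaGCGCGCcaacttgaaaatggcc
rpl-15 / K11H12.8 (chrIV:654883-654983, minus strand): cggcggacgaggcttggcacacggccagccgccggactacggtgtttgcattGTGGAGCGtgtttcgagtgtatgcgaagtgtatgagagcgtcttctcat
cdc-48.1 / C06A1.7 (chrII:10563520-10563620, minus strand): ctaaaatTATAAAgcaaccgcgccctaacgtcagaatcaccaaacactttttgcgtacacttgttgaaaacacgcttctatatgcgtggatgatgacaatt
Y17G9B.5 / rpl-20 (chrIV:4750037-4750137, plus strand): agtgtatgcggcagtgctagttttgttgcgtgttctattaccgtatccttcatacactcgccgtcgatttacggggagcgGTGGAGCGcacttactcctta
atad-3 / nrde-2 (chrII:10248501-10248601, plus strand): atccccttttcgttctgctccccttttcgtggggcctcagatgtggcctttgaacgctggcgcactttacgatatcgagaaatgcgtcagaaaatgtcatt
The 6 windows differed widely in composition, from 39.6% GC at cdc-48.1 to 59.4% at tasp-1. The word CGCTCCAC or its reverse complement stood in capitals in 3 of the 6, at tasp-1, rpl-15 and rpl-20. It joins CGCTCCA and GCTCCAC, which were picked from the member windows, these 3 included, so this count is a description only. None of the 6 held TAATTA or TAATGA, the homeodomain-type words searched.

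The distance to each 5′ end is given first for the nearer gene, which the rule defines as the nearer. The median distance to the nearest 5′ end was 180 bp (95% interval of the median 162 to 193), and 139 summits (58.9%) lay within 200 bp of it. The median distance to the opposite-strand 5′ end was 548 bp (474 to 674), and both 5′ ends lay within 1000 bp of 170 summits (72.0%, exact 95% interval 65.8% to 77.7%). The gap between the 5′ ends ranged from 92 to 2818 bp with a median of 778.5 bp. The nearer 5′ end lay at 40% or more of the gap at 48 summits (20.3%) and within 20% of it at 89 (37.7%), and no preference for a place within the gap is read from these shares. The nearest gene was on the plus strand at 124 summits and on the minus strand at 112. The 236 summits fell between 224 pairs made of 445 different genes, and at 16 summits another 5′ end lay between the pair. Intergenic sequence held 228 summits (96.6%), compared with 90.1% of 303 summits that lay within 1000 bp upstream of a gene with no such partner, called single-direction promoters here. A gene annotated as ncRNA lay in the gap at 36 summits, and a miRNA gene at 1. No such count is given for pairs without a member, so nothing particular to these summits is read from it.

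**Figure D1:**
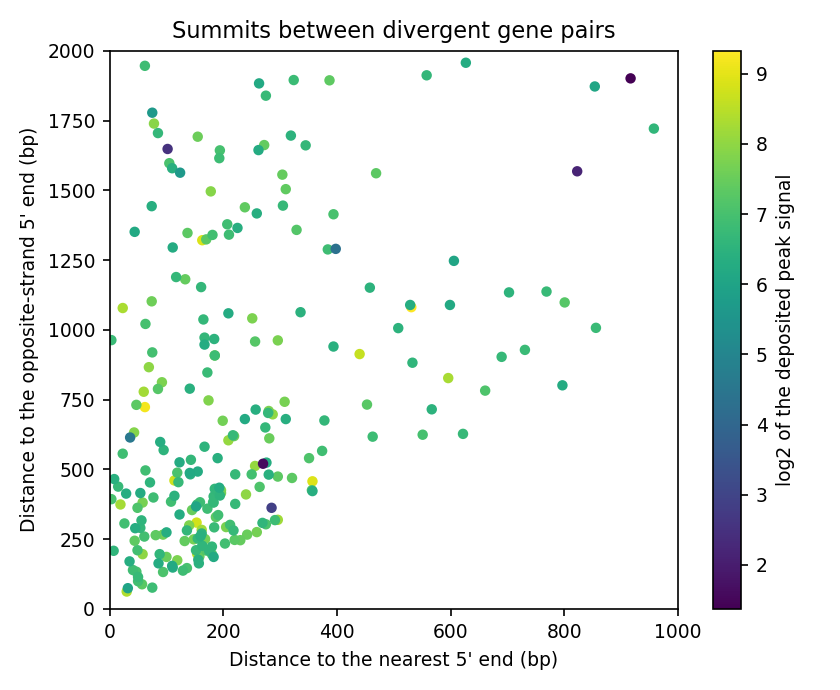
Distance of each of the 236 summits to its nearest 5′ end (x axis, bp) and to the opposite-strand 5′ end (y axis, bp), with the log2 of the deposited peak signal as colour. Most points lie at the left, within 200 bp of the nearer 5′ end, and strong and weak summits mix over the whole range of distances.

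The shortest gap, 92 bp, lay between ears-2, which encodes a glutamyl-tRNA synthetase, and uncp-18, which encodes a syntaxin-binding protein. Its summit stood 30 and 62 bp from the pair of 5′ ends, and its peak had a signal of 333 in the series list, 181 in replicate 1 and 149.7 in replicate 2. The peak was in the thresholded lists of both replicates and ranked ninth among the members. The next gaps, 106 bp at C01A2.1 and W05H12.4 and 145 bp at T26A8.4 and pdtf-1, had peaks of signal 65.1 and 158. The longest gaps were 2679 bp at F56C3.1 and F56C3.8, 2726 bp at C39E9.8 and C39E9.7, and 2818 bp at lin-13 and C03B8.3, with signals of 98.1, 67.8 and 2.59. The summit at lin-13 stood 208 bp from a stronger one, of signal 74.2, that was not a member.

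The members next to each limit are given as a description. Just inside the 1000 bp limit were the pairs of F56C3.1 (958 bp, signal 98.1) and lin-13 (917 bp, signal 2.59), and just outside were the pairs let-92 / ech-2 (1016 bp, signal 95.3) and ppm-2 / T23F11.6 (1019 bp, signal 94.9). For the opposite-strand limit, the summits of F13C5.1 / F13C5.3 (1957 bp, signal 77.7) and T07F10.3 / bus-19 (1946 bp, signal 117) were kept. Those of tba-2 / eif-6 (2013 bp, signal 89.4) and set-2 / eri-9 (2039 bp, signal 78.4) were not. For the small RNA limit, ska-3 / rps-12 (254 bp, signal 217) and F55H12.2 / F55H12.7 (309 bp, signal 4.45) were kept, and let-70 / klc-1 (178 bp, signal 148) and tmem-107 / rps-26 (98 bp, signal 171) were set aside.

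Most divergent pairs in the genome had no such summit. The annotation holds 3038 neighbouring head-to-head pairs with a gap of at most 3000 bp, and 210 of them held a member (6.91%, exact 95% interval 6.04% to 7.87%). The share moved with the list used: it was 3.85% and 4.97% with the list of replicate 1 or 2 alone and 3.98% with the upper 50% of the series list by signal. The share was 12 of 373 pairs (3.22%, 1.67% to 5.55%) for gaps of 1 to 250 bp and 56 of 544 (10.3%, 7.87% to 13.2%) for gaps of 251 to 500 bp. It was 74 of 828 (8.94%) for gaps of 501 to 1000 bp, 29 of 489 (5.93%) for 1001 to 1500 bp and 26 of 326 (7.98%) for 1501 to 2000 bp. In gaps of 2001 to 3000 bp, where the distance limits leave out part of the sequence, it was 13 of 478 (2.72%). Per kilobase of gap the pairs of 1 to 250 bp held 0.197 summits, those of 251 to 500 bp 0.280, those of 501 to 1000 bp 0.130 and those of 1501 to 2000 bp 0.0526. The intervals of the shares in the 2 shortest classes did not overlap, while per kilobase the shortest gaps held more summits than those over 500 bp; neither difference was tested.

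**Figure D2:**
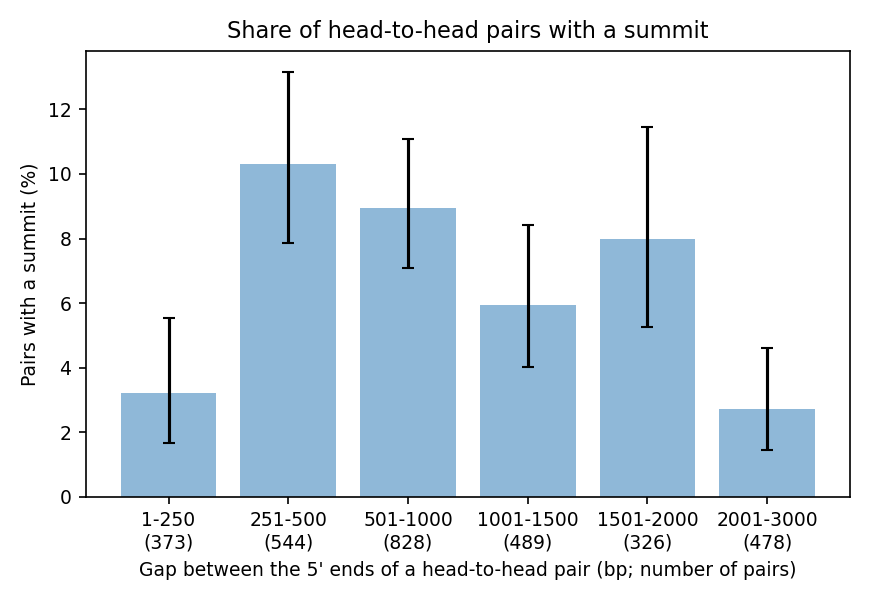
Percentage of neighbouring head-to-head gene pairs with a member summit (y axis) by the gap between their 5′ ends (x axis, bp, with the number of pairs in brackets); bars give the share and lines the exact 95% interval. Pairs 251 to 500 bp apart stand at 10.3%, those 1 to 250 bp apart at 3.22%.

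Genes of head-to-head pairs also had summits upstream more often than other genes when each gene was counted by itself. A summit off small RNA genes lay within 1000 bp upstream of 431 of the 6076 genes in such pairs (7.09%, 6.46% to 7.77%), and of 328 of the other 13897 protein-coding genes (2.36%, 2.11% to 2.63%). A summit in a shared gap counts for both genes, so these genes are not independent. The same was seen per kilobase of intergenic sequence within 1000 bp of a 5′ end, where each summit counts once: 0.0820 summits in head-to-head gaps and 0.0288 upstream of other genes. All intergenic sequence held 0.0217 summits per kilobase.

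The share of pairs with a member differed between chromosomes. It was 54 of 485 pairs on chromosome I (11.1%, exact 95% interval 8.48% to 14.3%) and 45 of 448 on III (10.04%, 7.42% to 13.2%). It was 31 of 786 on V (3.94%, 2.70% to 5.55%) and 12 of 256 on X (4.69%, 2.45% to 8.04%), with II at 6.47% and IV at 6.32% between them. The X chromosome held 12 members among 192 summits off small RNA genes, and chromosome I held 58 among 248. The intervals of I and V did not overlap, and the difference was not tested otherwise.

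The signal of a peak is the value of the authors' peak caller, whose normalization is not stated, so levels are compared only within a list. The median signal of the 236 peaks was 114 (95% interval of the median 104 to 119), compared with 100.7 (96.0 to 107) for 303 single-direction promoters. It was 81.2 for 178 summits downstream of their nearest 5′ end, 93.7 for 584 summits over 1000 bp from any, and 152 for 514 at small RNA genes. The member and single-direction intervals overlapped, and their difference was not tested. Of the 100 strongest peaks of the series 17 were members.

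The strongest member stood between K12H4.5 and K12H4.6, uncharacterised genes, 531 and 1081 bp from their 5′ ends, with a signal of 643 in the series list, 327 in replicate 1 and 309.6 in replicate 2. The next, at tasp-1 (threonine aspartase) and K01G5.10 (a haloacid dehalogenase-like protein in RefSeq), had a signal of 583, with 314 and 267 in the replicates. The peak at rpl-15, a large ribosomal subunit gene, and K11H12.8 had 477, with 266 and 206. These 3 peaks were among the upper 0.05% of ranked peaks in each replicate. The peak at cdc-48.1, whose product unfolds ubiquitinated proteins, and C06A1.7 had a signal of 474, with 249 and 215 in replicates 1 and 2. The peak at Y17G9B.5, an ECSIT-like protein, and rpl-20 had 443, with 267 and 175. The peak at dnj-28, a J-domain co-chaperone, and supr-1 had 424, with 198 and 251. It was the one of these strongest peaks with a higher value in replicate 2 than in replicate 1, on lists whose scales may differ. The peak at atad-3, a mitochondrial AAA ATPase, and nrde-2, a nuclear RNAi factor, had 399, with 200.2 and 191.

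The remaining peaks of the strongest 20 had signals from 348 down to 250.4. Beside the ears-2 pair they belonged to F44E5.4 / F44E5.5, cox-5B / tba-1 (a cytochrome c oxidase subunit and an alpha-tubulin), tag-340 / nhl-2, rpl-12 / lin-54, atx-2 / ecps-1, hsr-9 / rps-19 and czw-1 / F20D12.12. Then came Y22D7AL.10 / hsp-60, rps-1 / ifet-1, pcrg-1 / E04F6.6, rpl-7A / set-21 and ubc-6 / aka-1. All 20 were overlapped by peaks in both replicates. F44E5.4 and F44E5.5 are near-identical copies of an Hsp70 gene, and since nothing in the labels says how reads that match several places were handled, the value of that peak is uncertain.

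The pair of hsp-60 and Y22D7AL.10 joins genes of 1 protein machine. The former encodes the mitochondrial chaperonin, and RefSeq names the product of the latter as the small mitochondrial heat shock protein that serves as its co-chaperonin. In humans the counterparts of these genes also stand head to head. The pair is singled out here for this arrangement, seen after its values were known. Its summit lay 209 bp from Y22D7AL.10 and 604 bp from hsp-60, with a signal of 271, and with 164 in replicate 1 and 104.6 in replicate 2. Its window is given as above, in ce11 with the words searched in capitals.
Y22D7AL.10 / hsp-60 (chrIII:1619088-1619188, minus strand): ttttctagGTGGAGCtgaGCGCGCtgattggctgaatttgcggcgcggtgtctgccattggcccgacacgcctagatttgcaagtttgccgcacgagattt
The window was 55.4% GC with 9 CG dinucleotides, and held GCGCGC and GCTCCAC.

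The replicates differed in how many members they recovered. A peak of the thresholded list of replicate 1 overlapped 125 members (53.0%) and of replicate 2 154 (65.3%), by at least 1 bp. Both did so at 99 (41.9%, exact 95% interval 35.6% to 48.5%) and neither at 56 (23.7%), with 26 found by replicate 1 alone and 55 by replicate 2 alone. Over all 1815 peaks the shares were 52.0% for replicate 1, 56.1% for replicate 2, 38.5% for both and 30.4% for neither, so the members' values for replicate 1 and for both lay near those of the whole list. At single-direction promoters both lists overlapped 31.0% of peaks (25.9% to 36.6%) and neither 35.0%. The conservative list held the same peak, with the same start and summit, for 205 members (86.9%) and 81.5% of all peaks. Nearly every member had a peak in the full ranked lists, 230 in replicate 1 and 229 in replicate 2. So did most other summits. Both ranked lists had a peak at 226 of the 236 members and at 292 of 303 single-direction promoters. They did so at 157 of 178 downstream summits, 548 of 584 far ones and 489 of 514 at small RNA genes. The median signal of the members there was 65.3 and 53.5, and their median rank 862 of 69586 and 826 of 48662.

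Recovery followed the signal. The members were cut into 4 groups of 59 by signal. All 59 of the group with the highest signals (163 to 643) were overlapped by both replicates, and 35 of the next group were (114 to 162). In the group from 89.2 to 113, 3 of 59 were, and in the lowest (2.59 to 88.7) 2 of 59, with 39 overlapped by neither. Spearman's rho of the signals in the 2 ranked lists was 0.621 across the 226 members found in both, given as a description since the peaks share 2 libraries and were selected from them. The same value was 0.487 over 292 peaks at single-direction promoters.

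**Figure D3:**
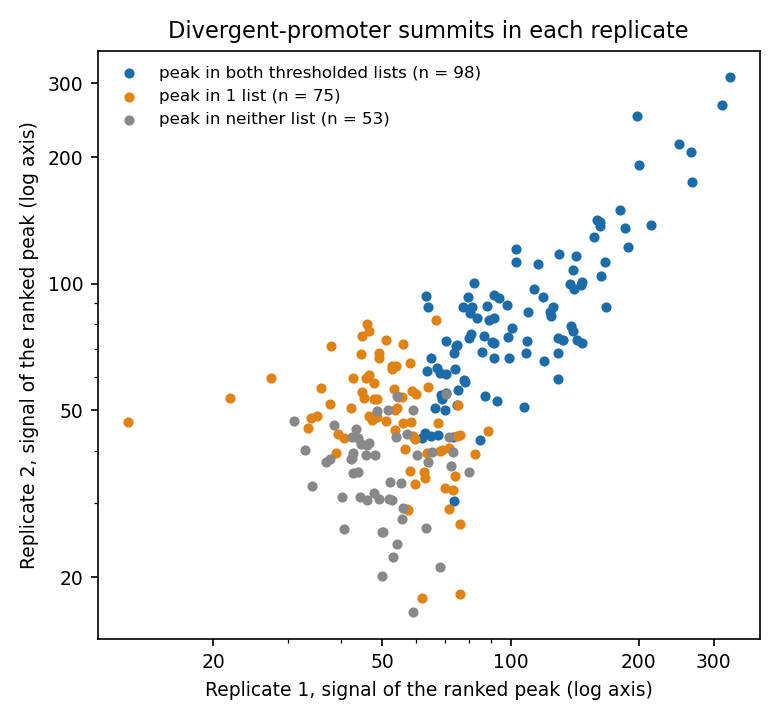
Signal of the ranked peak at each member in replicate 1 (x axis) and replicate 2 (y axis), both on log axes, for the 226 members with a peak in both ranked lists. Colours show whether the thresholded lists of both, 1 or neither replicate overlapped the member, and those in both lists make up the upper right.

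Of the 236 members, 9 had a signal below 60, and 8 of these lay 199 to 208 bp from another, stronger summit of the list. An example is the peak of signal 23.4 at ubc-6 and aka-1, 204 bp from the peak of 250.4 between the same genes. Among them, the peak of signal 2.97 at jmjd-1.2 and F29B9.11 stood 199 bp from a peak of 161 and was counted as overlapped by both replicates, although no peak of either ranked list covered its summit. Leaving out all peaks of signal below 60, a choice made after these were seen, left 227 members.

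Between 12 of the 224 pairs lay 2 summits, and between none more. At atx-2, which encodes an RNA-binding protein of the ataxin family, and ecps-1 the summits were 559 bp apart, 1 near each gene: 60 bp from atx-2 with a signal of 302 and 219 bp from ecps-1 with 185. Both were overlapped by both replicates. At mex-1, which encodes a zinc finger protein of the early embryo, and W03C9.5 the signals were 114 and 248, 723 bp apart. At ntl-11 and Y73F8A.27 they were 176 and 100.2, 1020 bp apart, and at mec-6 and W02D3.4 128 and 113, 1221 bp apart. In 6 of the 12 pairs the spacing was 199 to 207 bp, and in each of these the weaker peak had a signal under 60.

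The genes of the pairs were compared with 18 lists made from gene names, beside the share of all protein-coding genes at a member, 445 of 19973 (2.23%). Genes of head-to-head pairs were at a member in 7.09% of cases, and the share of each list in such pairs differs, so counts within such pairs are given too. Shares of lists were not tested against these backgrounds. A pair counts once for each of its genes, and 79 of the 236 members had a gene of any list.

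Of cytosolic ribosomal protein genes 20 of 83 were at a member (24.1%, exact 95% interval 15.4% to 34.7%). Of the list, 51 genes stood in head-to-head pairs and 19 of these (37.3%) were at a member. They accounted for 19 members with a median signal of 202, and 12 of these were overlapped by both replicates. The ribosomal protein gene was the nearer of the pair at 9 and the farther at 10. Both genes of the pair encoded ribosomal proteins once, at rpl-39 / rps-30 (signal 104, 65.5 and 39.6 in replicates 1 and 2, in neither thresholded list). The other partners were of many kinds, among them lin-54 (a DREAM complex subunit, beside rpl-12), ifet-1 (a translational repressor, beside rps-1), hsr-9 (beside rps-19), set-21 (beside rpl-7A) and rab-11.1 (beside rpl-7). Of 70 mitochondrial ribosomal protein genes 1 was at a member (1.43%, 0.0362% to 7.70%), an interval that holds the 2.23% of all genes. In head-to-head pairs it was 1 of 30 (3.33%). That gene was mrpl-49, and its partner was the cytosolic rpl-28 (signal 66.5, in neither thresholded list).

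Chaperone genes were at a member in 16 of 72 cases (22.2%, 13.3% to 33.6%), and 15 of the 38 in head-to-head pairs were (39.5%). At their 15 members the chaperone gene was the nearer of the pair at 7 and the farther at 8. These members had a median signal of 189, and 10 were overlapped by both replicates. They covered J-domain genes (dnj-28, dnj-13, dnj-19, dnj-12, dnj-14 and dnj-29), subunits of the cytosolic chaperonin that folds actin and tubulin (cct-8 with a signal of 243, cct-7 with 221 and cct-1 with 85.7) and Hsp70 genes (hsp-3 with 189 and hsp-6 with 92.4, beside the F44E5.4 pair). The nucleotide exchange factor gene bag-1, paired with syp-6, had 238, with 141 in replicate 1 and 97.1 in replicate 2.

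Genes of pre-mRNA splicing were at a member in 11 of 62 cases (17.7%, 9.20% to 29.5%), and 11 of the 36 in head-to-head pairs were (30.6%). The median signal was 102, and 2 of 11 members were overlapped by both replicates. Those were prp-19, a splicing ubiquitin ligase (233, with 116 and 111 in replicates 1 and 2), and snr-1, an Sm protein (202, with 129 and 74.1). Both were the farther gene of their pair. Over the 11 members the splicing gene was the nearer at 6 and the farther at 5. The genes rsp-1 and rsp-2, which encode SR proteins, faced each other across a single member (102), found by the list of replicate 2 alone. Nuclear pore and transport genes were at a member in 7 of 40 cases (17.5%, 7.34% to 32.8%), and 7 of the 25 in head-to-head pairs were (28%). They were led by npp-3 (192), npp-8 (158) and ran-1, the Ran GTPase (139). The listed gene was the nearer of the pair at 2 of these members and the farther at 5, among them ran-1.

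Other lists of general cell machinery had fewer genes at members, with intervals that reached to or near the share of all genes. The share was 4 of 43 for translation factors, led by iff-2 (249.9), eef-1G (129.6) and eef-1A.1 (116). It was 4 of 38 for DNA replication (pola-1 133, rfc-4 116 and sld-2 108) and 4 of 53 for the respiratory chain and ATP synthase (cox-5B 317, nduf-2.2 138 and mev-1 80.4). It was 2 of 31 for aminoacyl-tRNA synthetases (ears-2 333 and kars-1 87.8) and 1 of 33 for the proteasome (pbs-1 81.5). For the list named RNA polymerase and Mediator, which is wider than its name and also takes in taf-4, it was 3 of 57 (mdt-22 126, mdt-19 109 and taf-4 100.9). Within head-to-head pairs the shares were 4 of 24 for translation factors (16.7%), 4 of 23 for DNA replication (17.4%) and 4 of 30 for the respiratory chain (13.3%). They were 2 of 15 for synthetases (13.3%), 1 of 22 for the proteasome (4.55%) and 3 of 16 for RNA polymerase and Mediator (18.8%). All of these counts are small. Histone genes were at a member in 5 of 82 cases (6.10%). Of the 67 in head-to-head pairs 4 were (5.97%), compared with 7.09% of all genes in such pairs. The 5 were his-37 and his-35 (241), htz-1, the H2A.Z variant (109), and his-67 and his-68 (73.5). Canonical histone genes are near-identical copies, so their values are uncertain.

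Genes of the remaining lists, made from gene family names, were at members rarely. How widely these genes are expressed was not examined. No homeobox gene of 95 was at a member, the class VAB-7 itself belongs to (a count of 0 has an exact upper limit of 3.81%), and none of 173 collagens or 140 neuropeptide genes was. Few of these genes could be: 18 homeobox, 51 collagen and 19 neuropeptide genes stand in head-to-head pairs, so a count of 0 says little for the first and the last. Nuclear hormone receptor genes had 2 of 270 (2 of 64 in head-to-head pairs), nhr-47 (128, beside dnj-19) and nhr-142 (99.2). Chemoreceptor genes had 4 of 1364 (4 of 361 in such pairs), led by srt-11 (167), sri-5 (124.5, beside the splicing gene rsr-1) and sre-1 (124), and at 3 of the 4 the receptor gene was the farther of the pair. C-type lectin and F-box genes had 3 of 562 (3 of 205 in such pairs), fbxb-85 (122), fbxa-90 (100.7) and clec-140 (75.1).

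**Figure D4:**
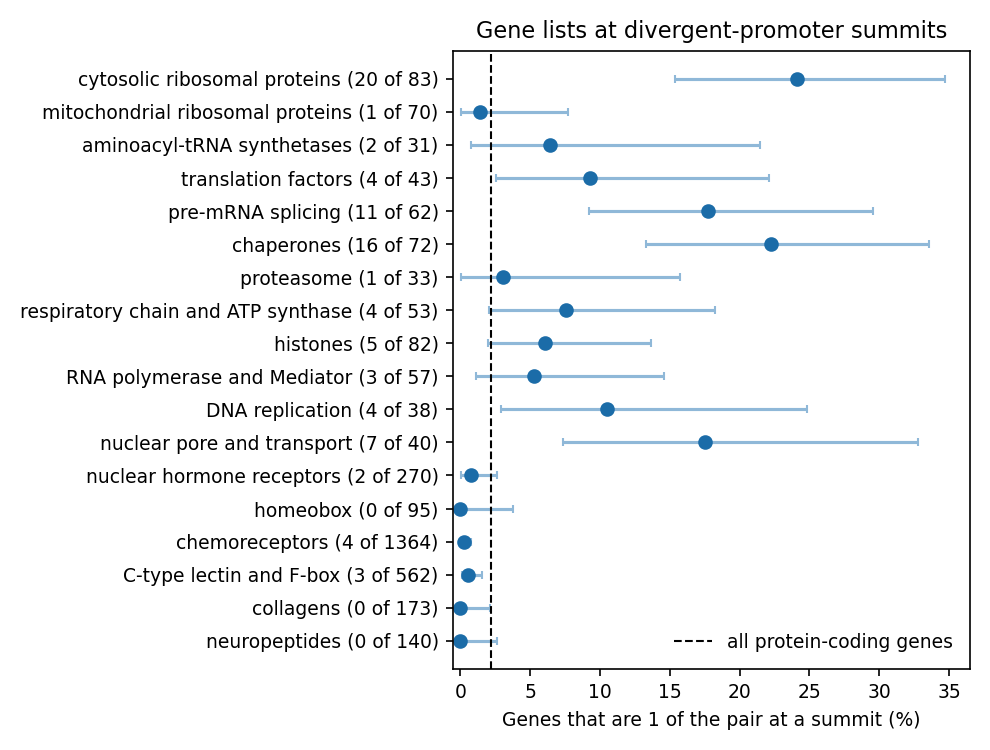
Percentage of the genes of each list that were 1 of the pair at a member (points, with exact 95% intervals; the count of genes is in brackets), and the share of all protein-coding genes, 2.23% (dashed line). Cytosolic ribosomal proteins, chaperones, splicing and nuclear pore genes stand farthest to the right, and homeobox, collagen and neuropeptide genes at 0.

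The DNA at the summits was rich in G and C. The mean GC content of the windows, 50 bp to each side of the summit, was 49.8%, with 35.9% and 35.8% in windows of the same length centred 300 bp to either side. It was 34.1% at the midpoints of the 2828 head-to-head pairs with no member, and 34.3% in windows 180 bp upstream of all protein-coding genes. Summits at single-direction promoters had 49.2% and those far from 5′ ends 49.1%. In the 4 groups of 59 members, from the highest signals to the lowest, the mean was 52.9%, 50.4%, 49.02% and 46.7%. Member windows held 7.96 CG dinucleotides on average, compared with 7.21 at single-direction promoters, 6.14 at far summits and 3.25 at midpoints without a member. GC content also affects how well fragments are amplified and sequenced, and its part in the height of these peaks was not tested.

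**Figure D5:**
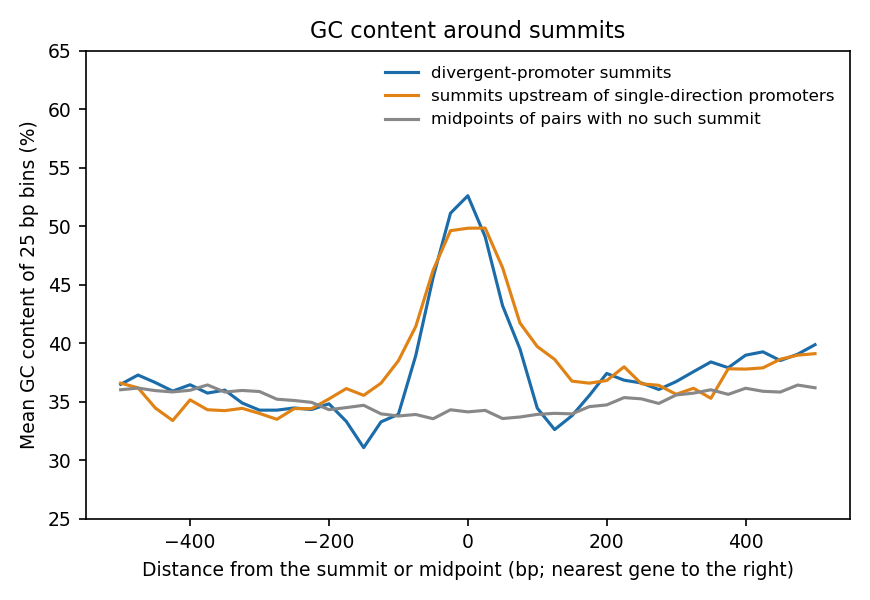
Mean GC content in 25 bp bins (y axis, %) by distance from the summit, or from the midpoint of pairs without a member (x axis, bp), with the nearest gene to the right. In the central bin members reach 52.6% and single-direction summits 49.8%, and midpoints without a member stand at 34.1%.

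Words of the kind homeodomains bind were in few windows, at members as at other summits. Both strands were searched in the same windows, and shares of windows were not tested against each other. TAATTA was in 6 of 236 windows (2.54%, exact 95% interval 0.939% to 5.45%), in 2.31% at single-direction promoters, 1.88% at far summits, 4.24% and 6.78% of the flanking windows and 5.59% of windows 180 bp upstream of all genes. TAATGA was in 10 windows (4.24%), in 1.32% at single-direction promoters, 2.74% at far summits, 3.39% and 5.51% of the flanking windows and 7.04% of all promoter windows. TATAAA was in 2.97% of member windows and 13.0% of all promoter windows, and TTTTCAG, of the kind seen at splice acceptors, in 4.66% and 8.93%. A run of 6 T was in 21.2% and 45.7%. The GC-rich words went the other way: GCGCGC was in 41 windows (17.4%, 12.8% to 22.8%), in 12.5% at single-direction promoters, 9.76% at far summits and 1.46% of all promoter windows. CCGCCC was in 9.32% of member and 2.38% of all promoter windows. GAGAGA, of the GA repeats common in nematode promoters, was in 16.1% of member windows, 20.1% at single-direction promoters and 7.96% of all promoter windows. Words are more or less frequent in a window of this GC content, and no window set was matched for it.

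All words of 7 bases were then ranked by their share in member windows less their share elsewhere, both strands joined, over the 6473 words present. The first by difference from midpoints without a member was GAGACCC, in 29 members (12.3%), followed by CGCTCCA, in 28 (11.9%). GCTCCAC, which overlaps CGCTCCA, was also among the words listed, in 23 (9.75%). The first by difference from single-direction promoters was ACCGTAC, in 21 (8.90%). Because they were picked for these differences, the shares are descriptions. At single-direction promoters GAGACCC was in 5.94% of windows, CGCTCCA in 4.62% and ACCGTAC in 1.65%. In the windows upstream of all genes they were in 1.06%, 0.811% and 0.891%, and ACCGTAC was in none of the 236 flanking windows on either side. The median distance from the summit was 17.5 bp for CGCTCCA, 18 bp for ACCGTAC and 26 bp for GAGACCC. Only the 50 bp to each side were searched, which bounds these distances, so no closeness to the summit is read from them.

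The windows of the members with ACCGTAC are shown for the 4 of highest signal that met the same conditions as the first set, with that word in capitals on whichever strand it was found. All are ce11, on the strand of the nearest gene.
Y55F3AR.2 / cct-8 (chrIV:1094295-1094395, plus strand): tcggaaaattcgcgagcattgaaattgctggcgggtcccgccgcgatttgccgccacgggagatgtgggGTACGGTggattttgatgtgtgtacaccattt
rps-23 / dpm-3 (chrIV:12391262-12391362, minus strand): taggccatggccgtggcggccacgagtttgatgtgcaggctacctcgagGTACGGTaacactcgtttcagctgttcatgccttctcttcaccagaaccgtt
cap-2 / gmps-1 (chrII:10868916-10869016, plus strand): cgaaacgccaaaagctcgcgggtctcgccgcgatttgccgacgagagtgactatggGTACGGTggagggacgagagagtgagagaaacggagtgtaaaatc
lin-9 / unc-32 (chrIII:8904218-8904318, minus strand): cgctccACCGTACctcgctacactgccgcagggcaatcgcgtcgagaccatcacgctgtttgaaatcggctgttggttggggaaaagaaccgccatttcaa
At cap-2 / gmps-1 and Y55F3AR.2 / cct-8 the word stands in the orientation GTACGGT, as it does at rps-23 / dpm-3, and at lin-9 / unc-32 as ACCGTAC. The windows of cap-2 / gmps-1 and Y55F3AR.2 / cct-8 also share the stretch cgccgcgatttgccg before the word. Whether the word is part of a longer repeated sequence was not tested.

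Members with these words were spread over strong and weak peaks, and some held several of the words. For example, cap-2 / gmps-1 held GAGACCC and ACCGTAC, and lin-9 / unc-32 held CGCTCCA and ACCGTAC. The members of the words are thus not separate sets. CGCTCCA was in 11 of the 59 members with the highest signals, and 16 of its 28 members were overlapped by both replicates. From the highest signal, and with the nearer gene first, the 11 began with tasp-1 / K01G5.10, rpl-15 / K11H12.8, Y17G9B.5 / rpl-20, dnj-28 / supr-1 and rps-1 / ifet-1. Then came K10D2.5 / prp-19, Y48B6A.1 / rpl-43, T10B5.4 / cct-7, Y71H2AM.20 / nduc-2, Y41D4A.4 / Y41D4A.6 and dnj-13 / F54D5.9. The median signal of the 28 was 133. ACCGTAC was in 4 of those 59, with 9 of 21 overlapped by both replicates and a median signal of 119. Its members of highest signal were Y55F3AR.2 / cct-8 (243), ekl-4 / rps-20 (204), rps-23 / dpm-3 (202) and cap-2 / gmps-1 (175), the last of which pairs a subunit gene of the actin capping protein with a GMP synthetase gene. They also included lin-9 (161) and lin-53 (156), which encode subunits of the DREAM complex. GAGACCC was in 7 of the 59 members with the highest signals, with 9 of 29 overlapped by both replicates and a median signal of 104. Over all 236 members, 99 (41.9%) were overlapped by both replicates and the median signal was 114. The differences between the words were not tested.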

How the data were processed

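The authors deposited peak lists on ce11, per the labels and file headers: a ranked and a thresholded list for each of 2 replicates, and series lists over both. The peak signal and the score of each peak are the authors' deposited values; how reads were aligned and peaks called, and the depth, is not given in the sources used here, so intervals cover the sampling of peaks or genes alone. Peaks come from 2 replicates of 1 group, and nothing says how the cultures were separated.

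A summit is the peak start plus the deposited offset. Distances used 5′ ends of 19973 protein-coding genes of Ensembl release 115 (WBcel235, the sequence of ce11), and sequence came from the RefSeq assembly. No sequence of chromosome I is printed. A member's value in a replicate is that of the strongest peak of the ranked list covering its summit. Gene lists were made from gene names. Genes named are both genes of the 20 strongest members, the extremes of gap length, the 3 strongest of each list and members next to each limit; others named were chosen after their values were seen, as were the ranked words. The members and lists were chosen with earlier results of these data known. Shares carry exact (Clopper-Pearson) and medians order-statistic 95% intervals. Scripts ran in Python 3.11.15 with numpy 2.4.6, scipy 1.17.1 and pandas 2.3.3, and the rule was tested on simulated summits.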

Additional observations from a re-analysis of the deposited data

How the results depend on the processing

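Between 132 and 162 summits met the rule in the list of 1 replicate alone, and 131 in the upper 50% of the series list by signal, compared with 236. Their share of summits off small RNA genes, 18.1% in the series list, was 20.9% to 23.6% with 1 replicate, 25.7% in the upper 50%, 14.3% with no small RNA distance (over all summits) and 13.1% with the partner within 1000 bp. That partner limit moved the median gap from 778.5 to 576 bp, as its construction requires. Both replicates overlapped 72.5% of members in the upper 50%, and this share has no value in 1 replicate's list. Head-to-head pairs with a summit were 3.85% to 4.97% with 1 replicate and 3.98% in the upper 50%, compared with 6.91%. The median GC content, 50.5%, was 52.5% in the upper 50%, 52.9% in windows of 25 bp to each side and 44.8% in windows of 100 bp to each side. The cause was not tested for any of these apart from the partner limit. The median distance to the nearest 5′ end stayed within its interval under every alternative run. Without peaks of signal below 60, chosen after seeing the data, 227 members remained and none of the values above left its interval. Under the same rule, 122 of the 132 summits of replicate 1 and 148 of the 162 of replicate 2 lay within 100 bp of a member of the series list. No paired analysis was possible because there was 1 group.

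The lists carry no read counts, so depth is unknown and a pair without a summit is not shown to lack binding. The control was not analysed here, and no spread between the 2 replicates is given for single peaks, because the scale of the signal is not stated.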
